A study of Mus musculus with 12 samples.

Results

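The cerebellar neuron genes are 10 genes that mark the main neurons of the cerebellum, found by their names among the 50457 genes listed for whole-brain RNA of mice with experimental autoimmune encephalomyelitis (EAE), the mouse model of multiple sclerosis. Of these, 7 are genes of granule cells, *Gabra6*, *Barhl1*, *Cbln1*, *Cbln3*, *Neurod1*, *Zic1* and *En2*, and 3 are genes of Purkinje cells, *Pcp2*, *Car8* and *Pvalb*. RNA-Seq was performed on brains of 12 female C57BL/6J mice aged 8 to 12 weeks, all immunized with a peptide of myelin oligodendrocyte glycoprotein in complete Freund's adjuvant with heat-killed mycobacteria and without pertussis toxin. They formed 4 groups by treatment and outcome, asymptomatic and symptomatic mice dosed with CBD (EAE/CBD) and asymptomatic and symptomatic mice dosed with CO (EAE/CO), where CBD is cannabidiol given orally at 75 mg/kg for 5 days, CO is its corn oil vehicle, and symptomatic mice showed a clinical sign of EAE. Brains were collected on Day 18, and the healthy mice of the study were not analysed here. By the sample labels the groups held 3, 4, 3 and 2 mice in that order. The paper instead places a mouse labelled as CBD-treated among the EAE/CO symptomatic mice, so which treatment's means include that mouse is not known. Each group held mice of both cohorts, cohort A and cohort B, and the cohorts cannot be separated in the values used.

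What was read from the deposited tables is 1 value per gene for each treatment, the larger of the asymptomatic and the symptomatic group mean, called the EAE/CBD level and the EAE/CO level below. Which of both groups has the larger mean was not read, so a level is the highest group mean under that treatment, and the other group mean lies at or below it. A ratio of the EAE/CBD to the EAE/CO level can therefore set asymptomatic mice of one treatment against symptomatic mice of the other. No values per mouse were used, so no level has an error, no difference below was tested, and whether neighbouring levels or any pair of EAE/CBD and EAE/CO levels differ beyond the spread between mice is not known. The unit is not stated. Levels multiplied by transcript length summed to 934271 for EAE/CBD and 919535 for EAE/CO, with length in kb, close to the 1000000 that values per kb and per 1000000 reads would give, and levels are compared between genes on that footing. The genes with a level of at least 1 under both treatments numbered 12464, and all 10 cerebellar neuron genes were among them. The median log2 ratio of EAE/CBD to EAE/CO levels over these genes was 0.035, with 56.5% of them higher and 42.9% lower in EAE/CBD. Of 8 genes made by neurons in general, *Snap25*, which encodes a protein of synaptic vesicle release, had the highest levels, 688 in EAE/CBD and 767 in EAE/CO. The lowest were those of *Rbfox3*, 8.81 in EAE/CBD and 10.23 in EAE/CO.

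Granule cells are small excitatory neurons that receive mossy fiber input and send parallel fibers to Purkinje cells, which are large inhibitory neurons and the only output of the cerebellar cortex. Granule cells release cerebellins, which hold together the synapse between parallel fibers and Purkinje cell dendrites. In whole-brain RNA, fewer cells of a type and less RNA per cell cannot be told apart.

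The promoters of *Gabra6* and *Pcp2* are shown because these are the members most confined to a single cell type, granule cells and Purkinje cells, and the *Pcp2* promoter is widely used to direct transgenes to Purkinje cells. Each runs 5′ to 3′ in GRCm39 from 250 bases before to 50 bases after the listed gene start, *Gabra6* on the minus strand at chr11:42211928-42212227 and *Pcp2* on the minus strand at chr8:3675498-3675797, with capitals for the E-box CATCTG on either strand.
Gabra6: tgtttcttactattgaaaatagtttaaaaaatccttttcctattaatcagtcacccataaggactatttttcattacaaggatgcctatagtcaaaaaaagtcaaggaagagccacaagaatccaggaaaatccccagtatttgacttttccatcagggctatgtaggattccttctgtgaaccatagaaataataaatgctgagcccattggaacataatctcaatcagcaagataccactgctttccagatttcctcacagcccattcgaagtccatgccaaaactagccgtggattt
Pcp2: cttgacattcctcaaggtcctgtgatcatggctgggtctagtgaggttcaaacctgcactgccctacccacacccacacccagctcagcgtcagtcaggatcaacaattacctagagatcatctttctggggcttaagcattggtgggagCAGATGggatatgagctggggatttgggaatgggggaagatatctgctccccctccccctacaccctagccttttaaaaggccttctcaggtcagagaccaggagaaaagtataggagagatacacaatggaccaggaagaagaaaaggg

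CATCTG and CAGCTG are E-boxes, the sites read by proneural factors such as the protein of *Neurod1*, and TATAAA is the core of the TATA box. On either strand, CATCTG stood in 1 of the 10 members' promoters, that of *Pcp2*, where it reads CAGATG. The share was 12.9% over 12463 promoters of the same length. CAGCTG and TATAAA stood in 0 of the 10, against 14.2% and 9.2% of all promoters. None of the 3 motifs overlaps another in the sequences shown, and a missing match says only that these letters are not in this window. The windows follow the listed starts. In the GENCODE annotation, the start of *Gabra6* is 42211910, outside its window. Those of *Barhl1*, *Neurod1*, *Zic1*, *Car8* and *Pvalb* also lie outside their windows.

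Levels of the 10 genes covered a wide range and kept almost the same order under both treatments. *Pvalb*, which encodes the calcium buffer parvalbumin of Purkinje cells and of fast-spiking interneurons across the brain, was highest, and *Barhl1*, which encodes a homeodomain transcription factor of developing granule cells, was lowest. The *Pvalb* level was 264 times that of *Barhl1* in EAE/CBD and 365 times in EAE/CO. From high to low the order in EAE/CBD was *Pvalb*, *Pcp2*, *Cbln1*, *Car8*, *Cbln3*, *Gabra6*, *Neurod1*, *Zic1*, *En2* and *Barhl1*, and in EAE/CO only *Car8* and *Cbln3* changed places. The summed levels of the 3 Purkinje cell genes were 1007 in EAE/CBD and 977 in EAE/CO, and those of the 7 granule cell genes 367 in EAE/CBD and 408 in EAE/CO.

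**Figure D1:**
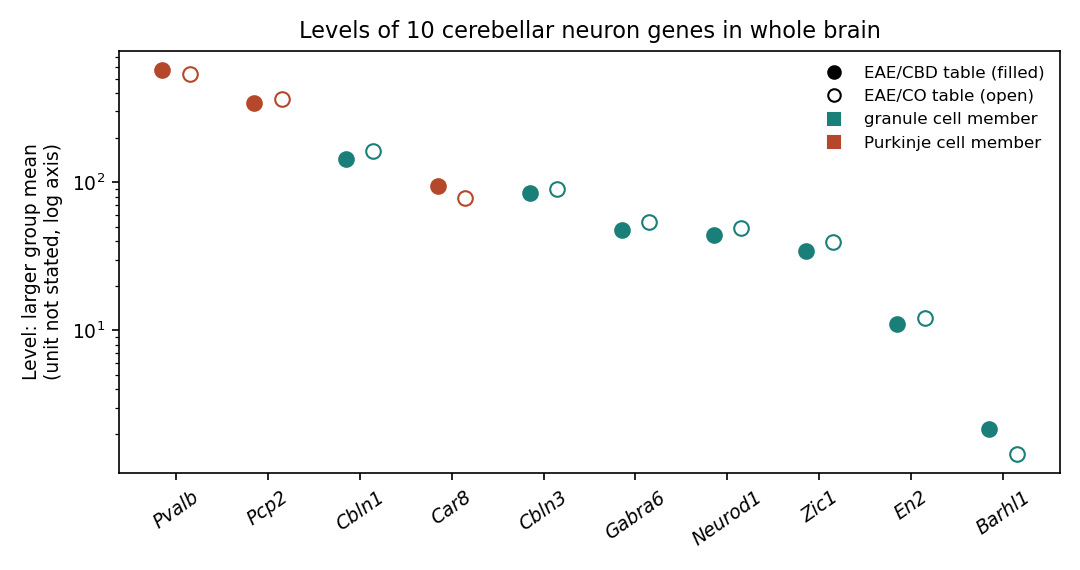
Level of each cerebellar neuron gene, the larger group mean on a log axis with no stated unit, in EAE/CBD (filled) and EAE/CO (open), with granule cell genes in green and Purkinje cell genes in orange. Levels run from 572 in EAE/CBD and 536.5 in EAE/CO for *Pvalb* down to 2.17 in EAE/CBD and 1.47 in EAE/CO for *Barhl1*, and 6 of the 7 granule cell genes have the filled point below the open one.

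Among the granule cell genes, 6 of 7 had a lower level in EAE/CBD than in EAE/CO, where 42.9% of all 12464 genes had. The differences were small. *Gabra6*, the GABA-A receptor subunit alpha 6 that is made almost only by cerebellar granule cells, had a level of 47.6 in EAE/CBD and 53.5 in EAE/CO. This is a log2 ratio of -0.17, lower than in most genes, since 17.7% of the 12464 genes had a smaller ratio. *Gabra6* lies on chromosome 11 of GRCm39 from 42197264 to 42211977 on the minus strand, and no other annotated gene overlaps it. *Cbln1*, the secreted cerebellin that granule cells supply to the parallel fiber synapse, was the highest of the granule cell genes, at 144 in EAE/CBD and 163 in EAE/CO (log2 ratio -0.18). *Cbln3*, a cerebellin that is secreted together with the product of *Cbln1*, had 84.3 in EAE/CBD and 89.3 in EAE/CO, the smallest difference in size of the 7 (log2 ratio -0.084). Both cerebellins of granule cells were therefore lower in EAE/CBD, with differences of -11.8% for *Cbln1* and -5.7% for *Cbln3*.

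The transcription factor genes of granule cells had lower levels than the receptor and cerebellin genes. *Neurod1*, a basic helix-loop-helix factor needed for granule cells to differentiate and survive, had a level of 44.1 in EAE/CBD and 49.3 in EAE/CO (log2 ratio -0.16). *Zic1*, a zinc finger factor of granule cell precursors that mature granule cells keep, had 34.4 in EAE/CBD and 39.4 in EAE/CO, the lowest log2 ratio of the 10 genes at -0.20. *En2*, the engrailed homeodomain factor that patterns the midbrain and cerebellum, had 11.1 in EAE/CBD and 12.05 in EAE/CO (log2 ratio -0.12). *Zic1* and *En2* are also made by neurons outside the cerebellum. The part that comes from granule cells was not measured for these or for the other granule cell genes. Of the 12464 genes, 15.1% had a smaller ratio than *Zic1* and 28.5% a smaller ratio than *Cbln3*, the ends of the range of these 6 granule cell genes.

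*Barhl1* was the exception among granule cell genes. Its level was 2.17 in EAE/CBD and 1.47 in EAE/CO, a ratio of 1.48 (log2 ratio 0.56), and 97.2% of all genes had a smaller ratio. Of the 2232 genes with levels from 1 to under 3 in both tables, 4.12% had a ratio at least as high as that of *Barhl1*. *Barhl1*, on chromosome 2 from 28797692 to 28807996 on the minus strand, overlaps *Ddx31* on the other strand, and no source used here says whether reads were counted by strand. *Barhl2*, its paralog, had 6.57 in EAE/CBD and 7.08 in EAE/CO (log2 ratio -0.11).

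The 3 Purkinje cell genes did not share a direction. *Pcp2*, which encodes a regulator of G protein signaling found in Purkinje cells and retinal bipolar cells, had a level of 341 in EAE/CBD and 362 in EAE/CO (log2 ratio -0.089). *Car8*, which encodes a carbonic anhydrase-related protein that binds the inositol trisphosphate receptor, had 94.3 in EAE/CBD and 78.8 in EAE/CO. At a log2 ratio of 0.26 it was the largest difference among the Purkinje cell genes, 19.6% higher in EAE/CBD. *Pvalb* had 572 in EAE/CBD and 536.5 in EAE/CO (log2 ratio 0.093). The partner of the *Car8* product, *Itpr1*, an intracellular calcium channel highly abundant in Purkinje cells, had levels of 70.9 in EAE/CBD and 54.5 in EAE/CO (log2 ratio 0.38), so both genes of this pair were higher in EAE/CBD.

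Of the other genes that overlap a member, *Cerkl* lies on the same strand as *Neurod1*, and *Gm11799*, a processed pseudogene, on the same strand as *Car8*. *Zic1* overlaps *Zic4*, *Pcp2* overlaps *Pet100*, *Cbln1* overlaps *Gm19872* and *En2* overlaps *Gm43610*, each on the other strand. The levels of these members are uncertain to the extent that reads were shared. *Gabra6*, *Cbln3* and *Pvalb* overlap no other annotated gene.

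Between treatments, 0 of the 10 members passed 1.5-fold in either direction, where 4.00% of all 12464 genes did. *Barhl1* lay just inside that limit, at 1.48-fold. With so low a share among all genes, 0 of 10 does not set the members apart.

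**Figure D2:**
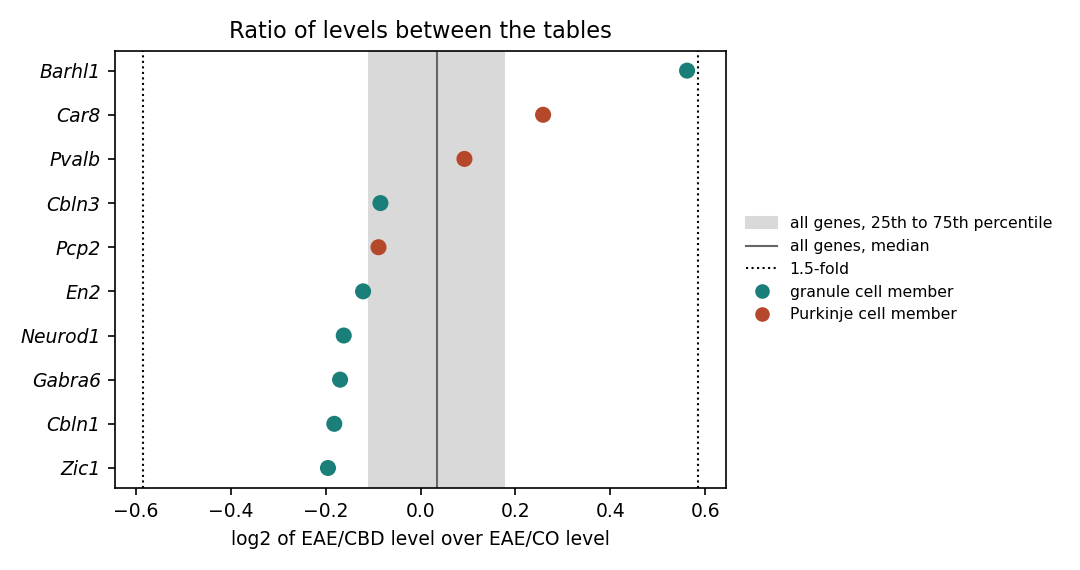
Log2 ratio of the EAE/CBD level to the EAE/CO level for each cerebellar neuron gene, with granule cell genes in green, Purkinje cell genes in orange, the 25th to 75th percentile of all genes shaded, their median as a line and 1.5-fold as dotted lines. Of the granule cell genes 6 lie between -0.20 and -0.084, *Barhl1* lies at 0.56, and the Purkinje cell genes lie at -0.089, 0.093 and 0.26.

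Set side by side, the granule cell genes had a median log2 ratio of -0.16 and the Purkinje cell genes one of 0.093, with 0.035 for all genes. Because *Pcp2*, a Purkinje cell gene, was lower in EAE/CBD and *Barhl1*, a granule cell gene, was higher, both sets overlapped. Ratios of a Purkinje cell gene to a granule cell gene under the same treatment do not depend on how levels were scaled between tables. Both levels of such a pair can come from different groups, the asymptomatic and the symptomatic one, so the ratio need not describe any single group. The *Car8* level was 1.98 times that of *Gabra6* in EAE/CBD and 1.47 times in EAE/CO. For *Pvalb* over *Gabra6* the ratio was 12.03 in EAE/CBD and 10.03 in EAE/CO, and for *Pcp2* over *Gabra6* it was 7.16 in EAE/CBD and 6.77 in EAE/CO. Of the 21 such pairs, 17 had a higher ratio in EAE/CBD. The pairs share genes and are not independent, and 3 of the 4 exceptions hold *Barhl1*; the other is *Pcp2* over *Cbln3*, at 4.04 in EAE/CBD and 4.05 in EAE/CO.

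Other genes of the same cells were taken from lists chosen with earlier results of these data known. They are therefore no independent check on the members. Of 10 other granule cell genes, 8 were lower in EAE/CBD, 2 were higher, and their median log2 ratio was -0.22. *Gabrd*, the delta subunit that joins alpha 6 in extrasynaptic GABA-A receptors of granule cells, had 45.2 in EAE/CBD and 62.2 in EAE/CO (log2 ratio -0.46). *Grin2c*, the NMDA receptor subunit of mature granule cells, had 11.6 in EAE/CBD and 17.1 in EAE/CO (log2 ratio -0.56). *Cdh15*, a cadherin of granule cells, had the lowest log2 ratio of the list at -0.57, with 5.91 in EAE/CBD and 8.79 in EAE/CO. *Zic2*, a paralog of *Zic1*, had 33.6 in EAE/CBD and 36.6 in EAE/CO (log2 ratio -0.12). The exceptions were *Etv1*, a transcription factor, at a log2 ratio of 0.18, and *Calb2*, which encodes calretinin. *Calb2* had 293 in EAE/CBD and 187 in EAE/CO (log2 ratio 0.65) and was the only gene of the list past 1.5-fold, where 2.47% of all genes were past it upwards and 1.53% downwards. Calretinin is also made by many neurons outside the cerebellum. The limit is not particular to *Calb2*, since all levels are of whole brain. For no granule or Purkinje cell gene was the part that comes from those cells measured. *Grin2c*, *Cdh15* and *Etv1* were named after their values were seen.

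Of 13 other Purkinje cell genes, 10 were higher in EAE/CBD, 3 were lower, and their median log2 ratio was 0.15. *Pcp4*, which encodes a calmodulin-binding peptide and is abundant in several brain regions, had 742 in EAE/CBD and 678 in EAE/CO (log2 ratio 0.13). *Calb1*, the calcium buffer calbindin, had 132.35 in EAE/CBD and 132.54 in EAE/CO. *Lhx5*, a LIM homeodomain factor of Purkinje cell development, was the only gene of the list past 1.5-fold, with 5.78 in EAE/CBD and 3.55 in EAE/CO (log2 ratio 0.70). With the members included, 14 of 17 granule cell genes were lower and 12 of 16 Purkinje cell genes were higher in EAE/CBD, beside the 42.9% and 56.5% of all genes given above. The genes of a list rest on the same mice and do not vary independently, so these counts are descriptions.

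Relatives and partners of the members were mostly lower in EAE/CBD, 16 of the 22 with a level of at least 1, and 6 were higher. Among GABA-A receptor subunits, *Gabrb2*, which assembles with alpha 6, had 20.4 in EAE/CBD and 18.6 in EAE/CO. The log2 ratio was -0.50 for *Gabra4*, the lowest of the subunits, with *Gabra3* at -0.28, *Gabra2* at -0.072 and *Gabra5* at -0.043. The cerebellins made mainly outside the cerebellum had far lower levels than *Cbln1*, at 4.60 in EAE/CBD and 4.67 in EAE/CO for *Cbln2* and at 3.97 in EAE/CBD and 4.58 in EAE/CO for *Cbln4*. Of the neurexins, which bind cerebellins, *Nrxn2* had a log2 ratio of -0.11 and *Nrxn3* one of -0.012, and *Grid1*, a receptor for cerebellins, had 6.58 in EAE/CBD and 6.59 in EAE/CO. *En1*, the paralog of *En2*, had 2.49 in EAE/CBD and 1.40 in EAE/CO, and at a log2 ratio of 0.83 was the only relative past 1.5-fold. *Zic5*, a paralog of *Zic1*, had a log2 ratio of 0.020. The carbonic anhydrase-related genes *Car10* and *Car11* had -0.12 and -0.52, against 0.26 for *Car8*. *Pcp4l1*, counted among the 6 higher genes, had 0.50, though it is a relative of *Pcp4*, which is not a member. *Neurod4* and *Ocm*, which encodes the parvalbumin relative oncomodulin, stayed below a level of 1, and *Atoh1*, the factor of granule cell precursors, was listed at 0 in both tables.

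**Figure D3:**
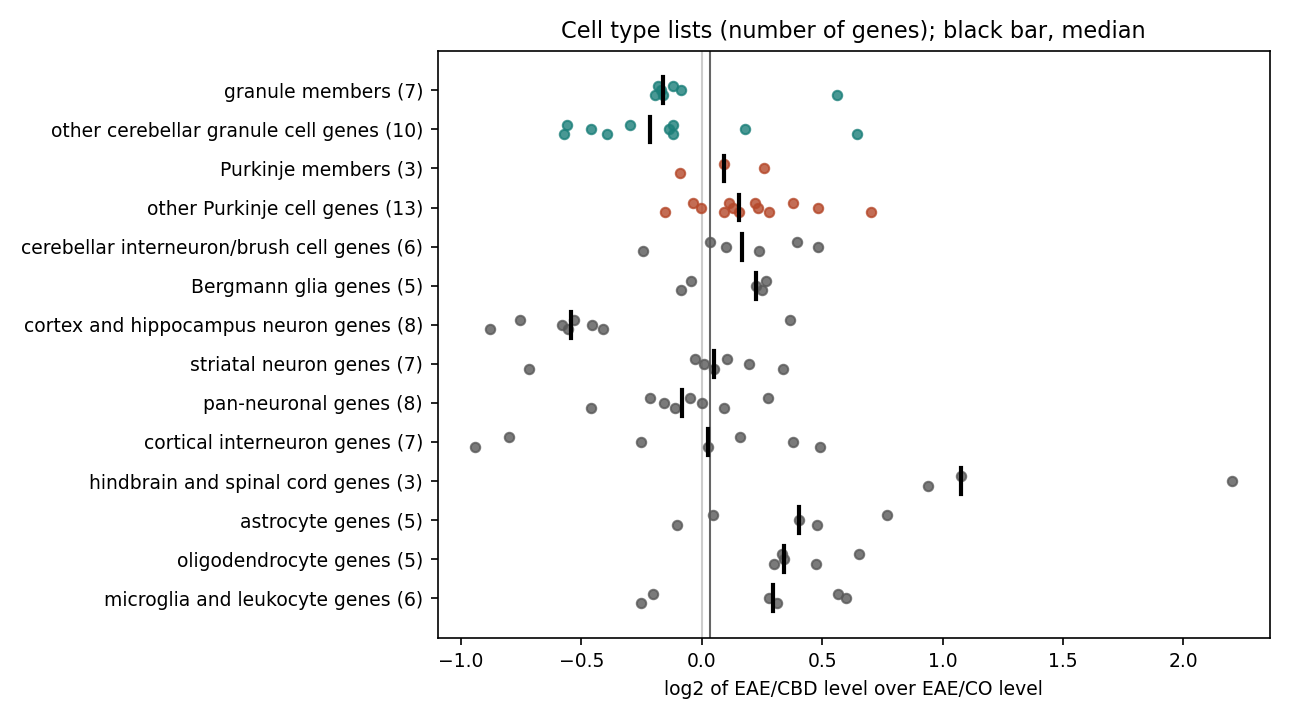
Log2 ratio of the EAE/CBD level to the EAE/CO level for genes of 14 cell type lists with a level of at least 1 in both tables, 1 point per gene, with black bars for medians and a dark line for the median of all genes. Granule cell lists (green) have medians of -0.16 and -0.22, Purkinje cell lists (orange) 0.093 and 0.15, and the points of both cell types overlap.

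Several lists of other brain regions and cell types had median ratios farther from that of all genes than the cerebellar lists, and their part in the values above was not tested. Their counts stand beside 42.9% of all genes lower and 56.5% higher in EAE/CBD. Of 8 genes of cortex and hippocampus neurons, 7 were lower in EAE/CBD, with a median log2 ratio of -0.54. Their highest levels included those of *Neurod2*, at 28.3 in EAE/CBD and 37.6 in EAE/CO, and *Neurod6*, at 15.5 in EAE/CBD and 22.7 in EAE/CO, while *Emx1* and *Tbr1* were past 1.5-fold downwards. All 3 genes of hindbrain and spinal cord with a level of at least 1, *Hoxb5*, *Hoxa5* and *Slc6a5*, were past 1.5-fold upwards, with a median log2 ratio of 1.08. All 5 oligodendrocyte genes were higher in EAE/CBD, with a median of 0.34. *Mbp* and *Cnp* were among the highest in level, and *Mobp* passed 1.5-fold. Astrocyte genes had a median of 0.40, with *Gfap*, *Slc1a2* and *Gja1* highest in level and *Aqp4* past 1.5-fold. Bergmann glia, the astrocytes that surround Purkinje cells, had a median of 0.22 over 5 genes, with *Septin4*, *Slc1a3* and *Hopx* highest in level. These 3 were higher in EAE/CBD, and the other 2, *Gdf10* at -0.046 and *Timp4* at -0.084, were lower. Genes of cerebellar interneurons and unipolar brush cells had a median of 0.17 over 6 genes, with *Lgi2*, *Kit* and *Eomes* highest in level. Microglia and leukocyte genes had 0.30 over 6 genes, with *Aif1*, *Cx3cr1* and *Itgam* highest in level and *P2ry12* past 1.5-fold. Of the 6, 4 were higher in EAE/CBD and 2 were lower, *Aif1* (log2 ratio -0.20) and *Cd3e* (-0.25). Striatal neuron genes had 0.052 over 7 genes, with *Penk* and *Ppp1r1b* highest in level. Cortical interneuron genes had 0.026 over 7 genes, with *Vip* and *Lhx6* past 1.5-fold downwards. Highest in level were *Sst*, *Gad1* and *Slc32a1*, which cerebellar inhibitory neurons also express in part. Pan-neuronal genes had -0.081 over 8 genes, with *Snap25*, *Eno2* and *Tubb3* highest in level.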

How the data were processed

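Whole-brain RNA of 12 mice was sequenced as paired-end reads of 150 bases, at a stated depth of 40000000 reads. Per the labels, the authors trimmed the reads, mapped them to GRCm39 and compared groups in CLC Genomics Workbench (version: not given in the sources used here). GRCm38 is named beside GRCm39 in the submitters' processing notes. Gene positions lie on GRCm39: of 40301 genes shared with the GENCODE annotation, 99.96% overlapped it on the same strand.

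The value used is the larger of 2 group means, which the authors deposited without a unit. The same tables hold the authors' log2 fold changes, fold changes, p-values and FDRs, and others list selected genes only. These were not used. The EAE/CO comparison was deposited in both directions, and 0 levels differed between the copies. The reads behind a level are unknown, so no interval is given.

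Ratios of the EAE/CBD to the EAE/CO level were computed without a pseudocount in Python 3.11.15 with pandas 2.3.3 for genes whose level reached 1 in both. A ratio of 1.5 in either direction counted as past the limit. No test was possible without values per mouse, and the count or limma tests planned for such values were not run. Ratios were checked on simulated levels. The genes named are the members, relatives and partners, and from each other list the 3 highest in EAE/CBD and any past 1.5-fold. *Etv1*, *Grin2c* and *Cdh15* were named beyond that rule, after their values were seen, and some genes under it are not reported here. Members and lists were chosen with earlier results of these data known. Alternatives were other pseudocounts, minimum levels and limits, scaling by the median ratio, means, and smaller sets of members.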

Additional observations from a re-analysis of the deposited data

How the results depend on the processing

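No mouse could be left out in turn. No paired analysis was possible because no values per mouse were used, so leaving out mice and the replicate block were not run. Reading the other copy of the EAE/CO comparison left every member's ratio as it was, and no member's ratio changed sign under any alternative run. The median log2 ratio of granule cell genes, -0.16, was -0.050 as a mean, in which the single high value of *Barhl1* counts in full, and -0.20 after division by the median ratio of all genes. That of Purkinje cell genes, 0.093, was 0.0875 as a mean, 0.085 without *Pvalb* and 0.057 after that division. The lower of the other fold limits tried was passed by 1 of 10 members, *Barhl1*. The share of all genes past 1.5-fold, 4.00%, was 8.89% at a minimum level of 0.1 and 2.21% at 5, and the share was 17.9% at that lower limit and 0.457% past 2-fold. With a pseudocount of 1 the log2 ratio of *Barhl1* fell to 0.36, against 0.56 without. The median of hindbrain and spinal cord genes was 1.53 at a minimum level of 0.1, against 1.08. Levels have no spread and no known depth, so whether any difference given here exceeds the variation between mice is not known.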
